A study of Mus musculus with 10 samples.

Results

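Genes of red blood cells were followed across the brain: the adult alpha-globin genes Hba-a1 and Hba-a2, the adult beta-globin genes Hbb-bs and Hbb-bt, and Alas2. They were chosen by symbol, with earlier results of these data known. All 5 of 5 were found by Ensembl gene ID among the 47729 genes of the count table. The libraries came from CF1 mice, an outbred stock, of postnatal day 56. Each used 1 µg of RNA from whole dissected tissue of 1 region, which was prefrontal cortex, hippocampus or hypothalamus. LP offspring had parents on a low-protein diet (LP) while mating, and their dams stayed on it through pregnancy and nursing. NP offspring had parents and dams on a normal-protein diet (NP) over the same time. Every pup, in both arms, was weaned at postnatal day 21 and then kept on NP, so LP here means a past diet of the parents and of early life. Prefrontal cortex and hippocampus were sampled in both sexes, and hypothalamus was sampled in males. Each combination of region, sex and diet has 1 library, which makes 5 pairs of LP and NP libraries. The labels name no genetic change in these animals. Whether a library stands for 1 animal or a pool is not given in the sources used here. Nor is it given whether the regions of 1 sex and diet came from the same animals. The tests thus measure the spread between these libraries, and the 5 pairs may not be independent.

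Haemoglobin is a tetramer of alpha-like and beta-like chains, each holding a haem group that binds oxygen. Its mRNAs are made in red cell precursors of the bone marrow and persist in reticulocytes, the young red cells that still circulate with some RNA. In whole brain tissue, globin mRNA is commonly found as RNA of blood left in the vessels, and some neurons and other brain cells have also been reported to transcribe globin genes. ALAS2 is the erythroid form of the first enzyme of haem synthesis, and ALAS1 is the form that other cells use. In whole tissue, fewer cells of a type and less RNA per cell cannot be told apart.

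The alpha genes lie on the plus strand of chromosome 11 (GRCm38/mm10), Hba-a1 (ENSMUSG00000069919) at chr11:32283511-32284465 and Hba-a2 (ENSMUSG00000069917) at chr11:32296489-32297298. The beta genes lie on the minus strand of chromosome 7, Hbb-bs (ENSMUSG00000052305) at chr7:103826534-103828096 and Hbb-bt (ENSMUSG00000073940) at chr7:103812524-103813996. Alas2 (ENSMUSG00000025270) lies on the plus strand of chromosome X at chrX:150547375-150570638. It shares 311 exon bases with Apex2, a gene of the opposite strand with 57 to 151 counts in the complete libraries.

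Within each family the copies are nearly the same gene, which bears on how far their counts can be separated. The coding sequences of Hba-a1 and Hba-a2 agree at 428 of 429 bases and differ only by C381T. Those of Hbb-bs and Hbb-bt agree at 443 of 444 bases and differ only by C417T, with positions counted from 1 at the first coding base and Hba-a1 or Hbb-bs written first. The stretches around these bases are shown with the differing base in capitals, over coding positions 366 to 396 of the alpha copies and 402 to 432 of the beta copies.
Hba-a1: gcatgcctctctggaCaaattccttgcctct
Hba-a2: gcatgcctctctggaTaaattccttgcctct
Hbb-bs: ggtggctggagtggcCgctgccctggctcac
Hbb-bt: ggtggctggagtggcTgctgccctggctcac
Most of what separates the copies lies outside the coding sequence. Of all 50-base windows of the reference transcript, 32.5% in Hba-a1 and 13.1% in Hba-a2 do not occur in the other alpha copy. In the beta pair these shares are 34.2% for Hbb-bs and 41.7% for Hbb-bt. Since the handling of reads that fit both copies is not stated, single-copy counts are uncertain and the summed alpha and summed beta counts are given beside them.

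The 250 bases before each RefSeq transcription start (GRCm38.p6) are shown for 4 of the genes because these genes moved together across the libraries. The window of Hba-a2 is not printed, since it is 97.6% identical to that of Hba-a1; the windows of Hbb-bs and Hbb-bt share 70.6% of their bases. Capitals mark 4 short motifs searched on both strands: GATAA, the core read by GATA factors, CACCC, the core of the boxes read by KLF1 and its relatives, CCAAT and the TATA-like ATATAA. Some GENCODE transcripts start further upstream, inside these windows. The windows are Hba-a1 at chr11:32283422-32283671 (plus strand), Hbb-bs at chr7:103827929-103828178 and Hbb-bt at chr7:103813924-103814173 (both minus strand), and Alas2 at chrX:150547167-150547416 (plus strand).
Hba-a1: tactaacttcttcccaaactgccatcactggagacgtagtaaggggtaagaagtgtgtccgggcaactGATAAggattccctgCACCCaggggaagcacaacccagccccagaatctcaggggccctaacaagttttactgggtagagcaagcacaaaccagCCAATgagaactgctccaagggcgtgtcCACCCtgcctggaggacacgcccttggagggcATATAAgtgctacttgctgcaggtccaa
Hbb-bs: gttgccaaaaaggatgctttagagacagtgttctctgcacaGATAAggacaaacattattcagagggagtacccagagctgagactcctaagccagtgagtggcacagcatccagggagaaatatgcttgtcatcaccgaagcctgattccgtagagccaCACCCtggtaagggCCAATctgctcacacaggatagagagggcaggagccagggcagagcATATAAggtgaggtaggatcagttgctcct
Hbb-bt: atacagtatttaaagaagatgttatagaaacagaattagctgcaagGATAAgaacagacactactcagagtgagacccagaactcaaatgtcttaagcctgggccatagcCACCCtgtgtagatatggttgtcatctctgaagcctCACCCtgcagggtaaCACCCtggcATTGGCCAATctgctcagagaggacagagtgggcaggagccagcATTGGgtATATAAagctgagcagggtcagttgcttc
Alas2: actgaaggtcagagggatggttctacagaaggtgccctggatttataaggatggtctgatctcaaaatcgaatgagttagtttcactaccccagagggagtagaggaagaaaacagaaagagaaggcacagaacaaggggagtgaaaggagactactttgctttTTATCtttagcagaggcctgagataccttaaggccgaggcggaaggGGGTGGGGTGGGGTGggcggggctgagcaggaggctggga
All 4 globin windows hold all 4 motifs. Of 32851 windows of the same length before RefSeq starts, 22.6% hold GATAA, 52.0% CACCC, 33.8% CCAAT and 9.1% ATATAA, and 153 (0.466%) hold all of them. Alas2 has GATAA and CACCC on its minus strand and neither of the others in this window. The motifs searched include those read by erythroid factors, and the copies of a family share much of their windows. The 4 globin windows are thus not 4 separate findings, and the contrast with all windows is a description. These are matches of letters, and no binding was measured. Whether the motifs bear on the levels in these libraries was not tested.

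The 9 complete libraries held 10256882 to 16265481 counts. The NP female hippocampus library held 7871010 and was incomplete: of 4501 genes outside its counted part that averaged 50 counts or more in the other libraries, 4486 were at 0 there, against 4 of 8581 genes inside it. The beta genes and Alas2 fall in the part not counted, so they were measured in 9 libraries and 4 pairs, and the alpha genes in 10 libraries and 5 pairs. Levels are CPM, counts per 1000000 of the scaled total over the 28131 genes counted in every library. On this scale 3 counts, the limit that a count of 0 allows, come to 0.243 to 0.468 CPM, and all 5 genes were above it in every library where they were measured. Labelled regions fitted most of their markers. All 8 hypothalamic genes tested, Hcrt and Nkx2-1 among them, were higher in hypothalamus than in either other region. All 5 hippocampal genes were higher in hippocampus than in prefrontal cortex. All 5 neocortical genes were lower in hippocampus than in prefrontal cortex, where 26.5% of all genes were. In hypothalamus against prefrontal cortex 4 of the 5 neocortical genes were lower and 1 higher, where 30.7% of all genes were lower and 33.2% higher. The title of the LP hypothalamus library carries a sample code with another ending than the other 9. The endings of those 9 differ only in whether zeros are written, also within the male prefrontal cortex pair. What the codes mean is not stated, so diet and whatever the LP hypothalamus code marks cannot be told apart in that pair.

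The globin mRNAs were lower in LP than in NP brains in every region and sex in which they were measured. Hba-a1, the copy with the most counts, had 360 CPM in LP and 633 CPM in NP male prefrontal cortex, and 312 CPM in LP and 536 CPM in NP female prefrontal cortex. In hippocampus it had 163 CPM in LP and 207 CPM in NP males, and 165 CPM in LP and 233 CPM in NP females. In male hypothalamus it had 598 CPM in LP and 883 CPM in NP. LP was below NP within each pair, while the 2 diets overlapped across regions, because hypothalamus of LP mice exceeded hippocampus of NP mice. Over the 5 pairs Hba-a1 fell by 0.61 ± 0.06 on the log2 scale (SE; edgeR's quasi-likelihood test with Benjamini-Hochberg adjustment over all genes, adjusted p = 0.000185). All 5 of the 5 genes passed this test in the lower direction, against 0.464% of the 17659 genes tested. The genes were chosen with earlier results of these data known and the copies are nearly identical, so this contrast is a description.

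Hba-a2, which encodes the same kind of alpha chain, had 234 CPM in LP and 405 CPM in NP male prefrontal cortex, and 213 CPM in LP and 350.5 CPM in NP females. Hippocampus had 108 CPM in LP and 142 CPM in NP males, and 111 CPM in LP and 160.3 CPM in NP females; male hypothalamus had 389.6 CPM in LP and 585 CPM in NP. Again LP was the lower library of each of the 5 pairs, and the fall over the pairs was 0.61 ± 0.05 (edgeR adjusted p = 8.28e-05).

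Of the beta genes, Hbb-bs had 352 CPM in LP and 564 CPM in NP male prefrontal cortex, and 304 CPM in LP and 502 CPM in NP females. It had 154 CPM in LP and 204 CPM in NP male hippocampus, 159 CPM in LP female hippocampus, and 547 CPM in LP and 799 CPM in NP hypothalamus. LP was lower in all 4 pairs measured, and the fitted change was a fall by 0.59 ± 0.05 (edgeR adjusted p = 5.4e-05). Hbb-bt had 198 CPM in LP and 322 CPM in NP male prefrontal cortex, and 173 CPM in LP and 279 CPM in NP females. It had 88.7 CPM in LP and 117 CPM in NP male hippocampus, 87.8 CPM in LP female hippocampus, and 324 CPM in LP and 469.5 CPM in NP hypothalamus. Its fall was 0.59 ± 0.06 (edgeR adjusted p = 8.28e-05), also with LP lower in each of 4 pairs.

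Alas2 was present at a small fraction of the globin levels. Male prefrontal cortex had 53 counts (6.10 CPM) in LP and 93 counts (11.6 CPM) in NP, and female prefrontal cortex 33 counts (5.15 CPM) in LP and 74 counts (10.7 CPM) in NP. Male hippocampus had 25 counts (2.99 CPM) in LP and 36 counts (4.54 CPM) in NP, and LP female hippocampus 24 counts (3.27 CPM). Hypothalamus had 131 counts (11.7 CPM) in LP and 187 counts (15.1 CPM) in NP. LP was lower in all 4 pairs, and the fall was 0.65 ± 0.15 (edgeR adjusted p = 0.0452). This call is close to the threshold: it was kept in 4 of 11 alternatives that treat the incomplete library as missing (adjusted p from 0.0181 to 0.453), and lost with DESeq2, which gave the highest of these. Without the hypothalamus pair, all 5 genes passed, Hba-a1 at −0.63 and Alas2 at −0.90. Without the male prefrontal cortex pair its adjusted p was 0.173, without the female prefrontal cortex pair 0.226, without the male hippocampus pair 0.14 and without the female hippocampus pair 0.0578. Apex2, which overlaps it on the other strand, had a log2 difference of 0.17 ± 0.12 (LP minus NP, adjusted p = 0.542), the opposite sign.

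**Figure D1:**
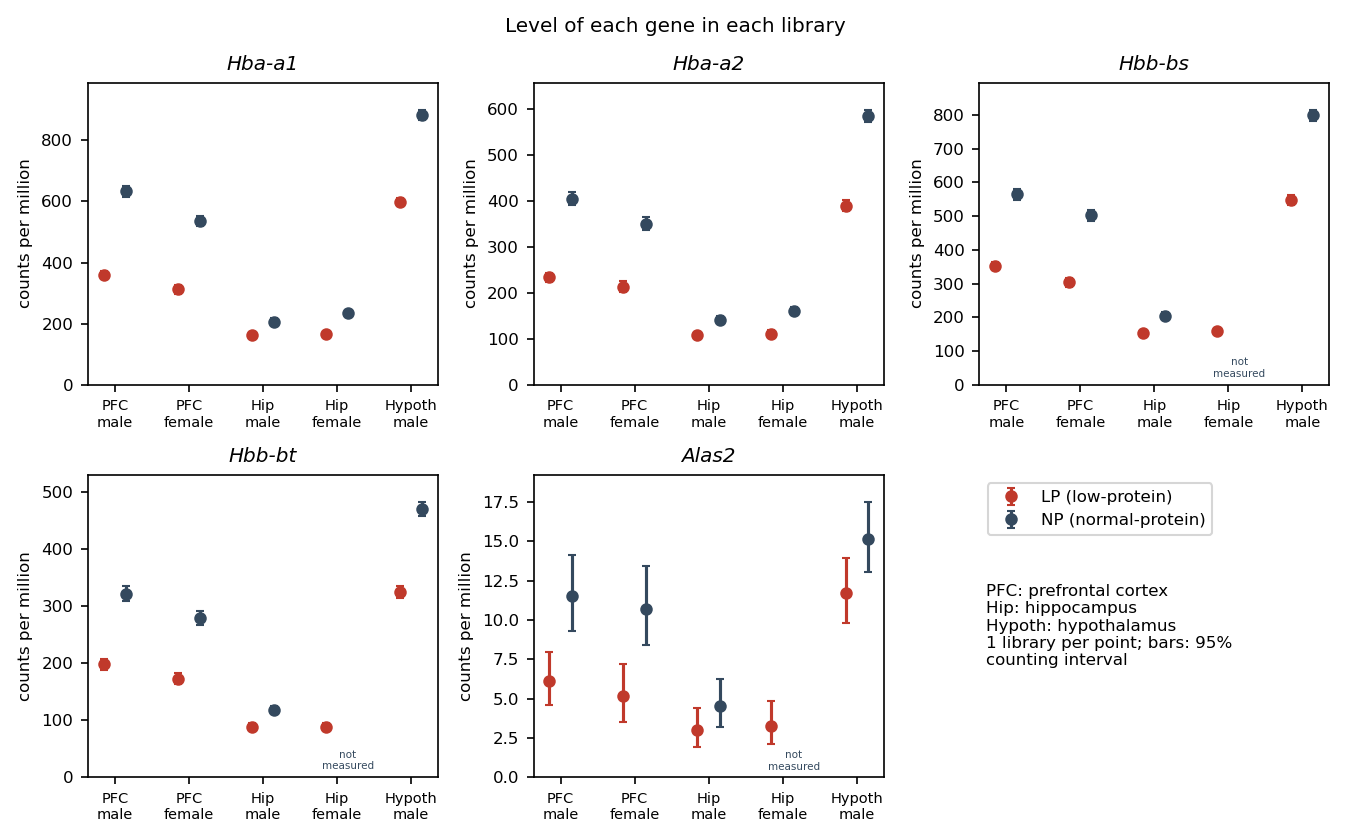
CPM of each gene by region and sex, with LP (red) to the left of NP (blue), 1 library per point and 95% counting intervals as bars. LP lies below NP within each of the measured pairs of every gene, and hypothalamus lies above hippocampus at either diet.

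Sums over the copies do not depend on how shared reads were divided between them, though reads dropped or counted more than once would still affect them. Summed alpha fell by 0.61 ± 0.06 (edgeR adjusted p = 0.000142) and summed beta by 0.59 ± 0.05 (adjusted p = 4.9e-05). As a ratio of LP to NP, summed alpha was 0.572 in male and 0.593 in female prefrontal cortex, 0.777 in male and 0.701 in female hippocampus, and 0.673 in hypothalamus. Summed beta stood at 0.620 in male and 0.610 in female prefrontal cortex, 0.755 in male hippocampus and 0.687 in hypothalamus. The counting intervals of these 9 ratios all lay below 1. Of all 17659 genes tested, 1297 (7.34%) were lower in LP in every pair measured.

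Diet was also tested within regions. In prefrontal cortex Hba-a1 fell by 0.80 ± 0.06 (edgeR adjusted p = 3.09e-07) and Hba-a2 by 0.76 ± 0.06 (adjusted p = 1.47e-06), where 0.885% of 11749 genes were called lower. In hippocampus Hba-a1 fell by 0.42 ± 0.06 (adjusted p = 0.00146) and Hba-a2 by 0.45 ± 0.07 (adjusted p = 0.00168), where 0.111% were. Without a filter on low counts both hippocampal calls were lost, with adjusted p = 0.0669 for Hba-a1 and 0.0746 for Hba-a2. For summed alpha the single-pair log2 ratios in hippocampus were −0.36 (95% counting interval −0.44 to −0.28) in males and −0.51 (−0.59 to −0.43) in females. In prefrontal cortex they were −0.81 (−0.86 to −0.76) in males and −0.75 (−0.82 to −0.69) in females, so the intervals of the 2 regions, which cover counting error and not the spread between libraries, do not overlap. The difference between the regions, hippocampus minus prefrontal cortex, was 0.34 ± 0.08 for summed alpha (edgeR adjusted p = 0.355) and did not pass. It was 0.37 ± 0.08 for Hba-a1 (adjusted p = 0.357) and 0.30 ± 0.09 for Hba-a2 (adjusted p = 0.659). In that comparison 0 of 11749 genes passed with edgeR (0.0%), with 643 at an unadjusted p under 0.05, and 0 passed with DESeq2. The diet difference in females minus that in males was −0.06 ± 0.13 for Hba-a1 (adjusted p = 0.948) and −0.03 ± 0.12 for Hba-a2 (adjusted p = 0.979), where 0.182% of 10973 genes passed. These tests used the genes counted in all 10 libraries, the alpha genes among them. With all-gene totals and the incomplete library left out, which leaves 1 residual degree of freedom, the differences in prefrontal cortex were −0.71 ± 0.06 for Hbb-bs, −0.70 ± 0.07 for Hbb-bt and −0.98 ± 0.23 for Alas2 (adjusted p = 0.00123), where 2.57% of 18044 genes were called lower. In male hippocampus they were −0.41 ± 0.10 for Hbb-bs (adjusted p = 0.00654), −0.41 ± 0.11 for Hbb-bt (adjusted p = 0.0289) and −0.60 ± 0.44 for Alas2 (adjusted p = 0.933), where 0.294% were called lower and Alas2 did not pass.

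**Figure D2:**
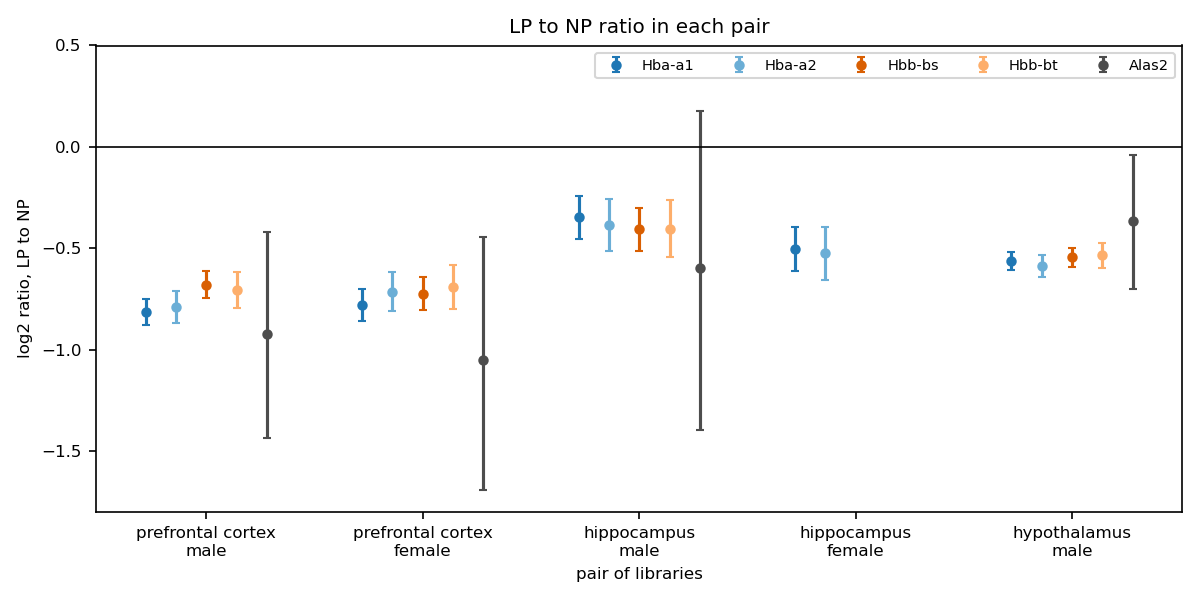
Log2 ratio of LP to NP in each pair of libraries for the 5 genes, with 95% counting intervals as bars. All points lie below 0, and the one interval that crosses 0 is that of Alas2 in male hippocampus (−0.60, −1.40 to 0.18).

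The proportions among the 5 genes were compared within each library. Hba-a1 made up 60.0% ± 0.54 of alpha counts in LP (SD, n = 5) and 60.0% ± 0.73 in NP (n = 5), with 59.3% to 61.0% over the 10 libraries. The mean within-pair difference, LP minus NP, was −0.02 percentage points (exact two-sided sign-flip permutation test on logit shares, p = 0.875, where 5 pairs cannot go below 0.0625). Hbb-bs made up 63.7% ± 0.60 of beta counts in LP (n = 5) and 63.6% ± 0.54 in NP (n = 4), with a within-pair difference of −0.09 points (exact permutation p = 0.625, where 4 pairs cannot go below 0.125). For both shares a single value lies inside the 95% intervals of all libraries. CF1 mice may carry another beta haplotype than the reference genome; the labels do not give it, so the beta shares, and the base that separates the beta copies, hold for the reference genes.

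Alpha counts stood to beta counts as 1.11 ± 0.02 in LP (SD, n = 5) and 1.14 ± 0.04 in NP (n = 4), and ran from 1.08 to 1.17. No single ratio lies inside all 9 intervals. In male prefrontal cortex the ratio was 1.08 (95% interval 1.04 to 1.12) in LP and 1.17 (1.13 to 1.21) in NP, so these 2 intervals do not overlap, while those of the other 3 pairs do. Over the pairs LP was higher in 1 of 4, and the exact permutation test on log2 ratios gave p = 0.5. Alas2 had 5.77 ± 0.53 counts per 1000 globin counts in LP (n = 5) and 6.18 ± 0.53 in NP (n = 4). LP was lower in 3 of 4 pairs, with hypothalamus the exception at 6.31 in LP and 5.54 in NP (exact permutation p = 0.375), and 1 value lies inside all 9 intervals. The intervals cover counting error only.

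**Figure D3:**
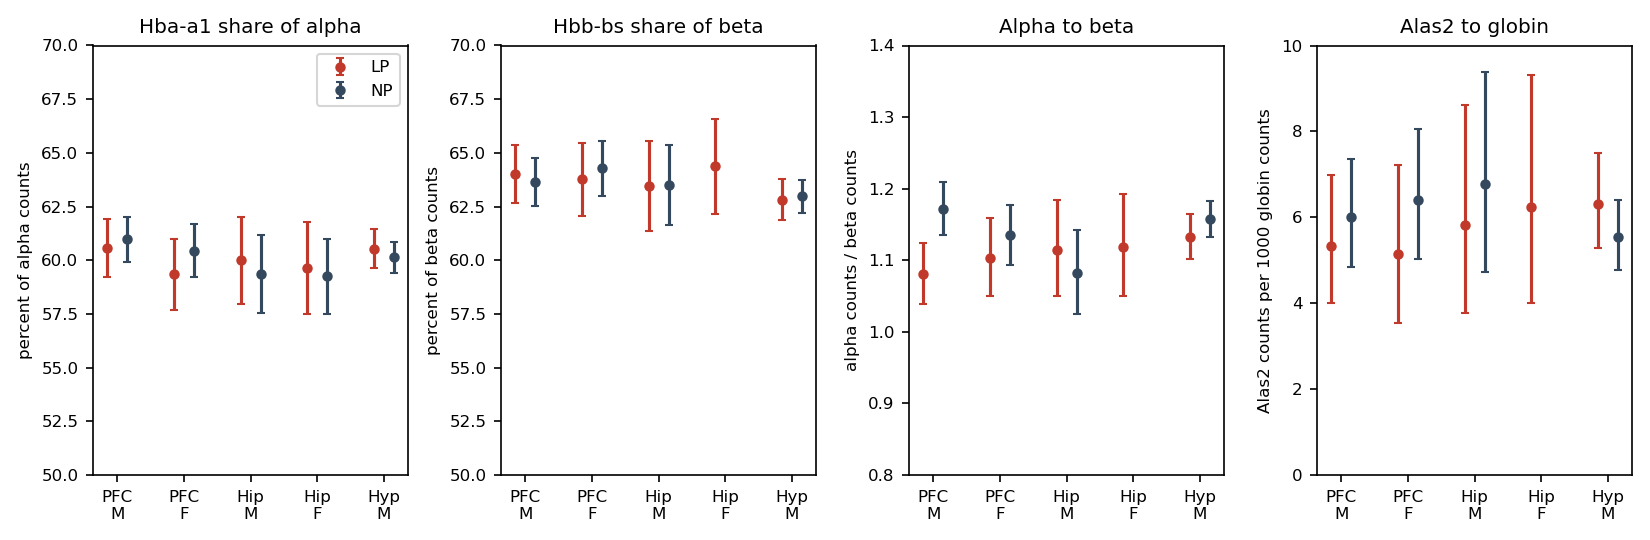
Within-library proportions by region and sex (M male, F female), with LP (red) left of NP (blue) and 95% intervals as bars: share of Hba-a1 in alpha counts, share of Hbb-bs in beta counts, alpha to beta counts, and Alas2 per 1000 globin counts. The vertical axes of the first 3 panels do not start at 0, and the copy shares stay between 59.3% and 61.0% for Hba-a1 and between 62.8% and 64.4% for Hbb-bs.

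Levels also differed between regions, in the order hypothalamus, prefrontal cortex, hippocampus. Summed alpha was 271 to 394 CPM in 4 hippocampal libraries, 525 to 1038 CPM in 4 of prefrontal cortex, and 987 and 1467 CPM in the LP and NP hypothalamus. Hippocampus and prefrontal cortex did not overlap even across diets, whereas the LP hypothalamus lay below NP male prefrontal cortex. Summed beta followed the same order, with 243 to 322 CPM in 3 hippocampal libraries, 476 to 886 CPM in 4 of prefrontal cortex, and 872 and 1268 CPM in the LP and NP hypothalamus.

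All 5 genes were lower in hippocampus than in prefrontal cortex, where 26.5% of 17421 genes were called lower. The log2 difference was −1.23 ± 0.08 for Hba-a1 (edgeR adjusted p = 1.1e-08) and −1.13 ± 0.21 for Alas2 (adjusted p = 0.000199), with the other 3 genes from −1.21 to −1.18. All 5 were higher in hypothalamus than in hippocampus, where 30.6% were called higher, by 1.77 ± 0.20 for Alas2 to 1.90 ± 0.10 for Hba-a1, which is 3.42-fold to 3.73-fold. All 5 were also higher in hypothalamus than in prefrontal cortex, where 33.2% were called higher, by 0.62 ± 0.08 for Hbb-bs to 0.69 ± 0.08 for Hba-a2. Hypothalamus was sampled in males alone, and sex entered these fits as a term. Apex2, which overlaps Alas2, had the same signs as Alas2 in these 3 comparisons. It stood at −0.12 ± 0.14, 0.44 ± 0.15 (edgeR adjusted p = 0.0172) and 0.32 ± 0.14 (adjusted p = 0.0647). The strand setting of the counts is not given, and the part of Apex2 reads in the Alas2 values was not tested.

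Between the sexes 0 of the 5 genes passed, where 0.628% of 16716 genes did with edgeR. The largest differences, female minus male, were −0.16 ± 0.05 for Hbb-bt (edgeR adjusted p = 0.286) and −0.13 ± 0.05 for Hbb-bs (adjusted p = 0.431). Both beta genes had an unadjusted p under 0.05, and DESeq2 also called 0 of the 5. For Hba-a1 the difference was −0.07 ± 0.06 and for Hba-a2 −0.04 ± 0.06.

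Levels were compared between genes per length. Levels were averaged over the 9 complete libraries. Per kilobase of GENCODE M21 transcript they were 634 CPM for Hbb-bs, 613 for Hba-a1, 509 for Hba-a2, 325 for Hbb-bt and 3.88 for Alas2. Per kilobase of coding sequence they were 998 for Hba-a1, 897 for Hbb-bs, 658 for Hba-a2, 515 for Hbb-bt and 4.48 for Alas2, so the order of Hba-a1 and Hbb-bs, and the distance of Hba-a2 from them, depends on the length used. Together the 4 globin genes took 0.0331% to 0.208% of all counts in the complete libraries.

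Of the other listed genes of red cells, 0 of those tested passed by diet, where 1.42% of all genes did. The rest of the globin clusters was nearly silent: Hbb-y, Hbb-bh0, Hbb-bh2 and Hbb-bh3 had 0 counts in every library where they were measured, Hba-x and Hbb-bh1 had 0 to 2, and Hbq1a had 1 to 8. These include the embryonic chains. Hbq1b, the one with enough counts to test, had 10 to 30 counts per library and a log2 difference of −0.04 ± 0.23 (edgeR adjusted p = 0.969).

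Of 19 red cell genes found, 6 could be tested, and 0 passed in either direction (median 0.01, against −0.00 over all 17659 genes, where 1.42% passed). The defining genes were at or near the detection limit in both diets. Slc4a1, the band 3 anion exchanger of the red cell membrane, had 0 to 6 in LP and 2 to 5 in NP. Of the erythroid transcription factor genes, Gata1 had 0 to 1 counts in LP and 0 in NP, and Klf1 had 1 to 5 in LP and 1 to 3 in NP. These genes were below the filter and were not tested, so the median of the 6 does not cover them. The 2 most abundant of the list, the spectrin gene Sptb (0.10 ± 0.04, edgeR adjusted p = 0.286) and Tmcc2 (−0.02 ± 0.04, adjusted p = 0.88), had 1998 to 4404 counts in every library. They averaged 346 and 330 CPM over the complete libraries, against 0.404 CPM for Slc4a1 and 0.304 CPM for Klf1. How much of the RNA of the 6 tested genes came from red cells was not tested.

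Other steps of haem synthesis and iron handling held no call, where 1.42% of all 17659 genes tested passed. At that share lists of this size can be expected to hold few calls or none. Of 13 other genes of haem synthesis 0 passed in either direction (median −0.00): Alas1 had 0.07 ± 0.05 (adjusted p = 0.624) and Fech, which inserts the iron, −0.00 ± 0.05 (adjusted p = 0.995). Of 15 iron and haem handling genes tested 0 passed (median −0.02), with the ferritin chains Fth1 at −0.07 ± 0.04 and Ftl1 at 0.04 ± 0.05. The globins of other tissues also held 0 calls among 3 tested: cytoglobin (Cygb) had −0.02 ± 0.06 and neuroglobin (Ngb) −0.27 ± 0.11 (edgeR adjusted p = 0.265). Of 14 hypoxia-induced genes tested 1 passed, against 0.957% of all genes called higher, and the median was 0.03. The gene was P4ha1, a subunit of collagen prolyl hydroxylase, which rose by 0.41 ± 0.05 (edgeR adjusted p = 0.00162). The 5 globin and Alas2 genes had a median of −0.61.

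Markers of white blood cells and platelets, the other cells of blood, were scarce. Of 21 such genes 6 could be tested and 0 passed, where 1.42% of all genes did (median −0.06). The platelet genes Itga2b and Gp1ba stood at −0.07 ± 0.16 and 0.03 ± 0.36. The summed level of the 6 genes was 9.79 CPM in LP and 10.1 CPM in NP male prefrontal cortex. In female prefrontal cortex it was 8.58 CPM in LP and 8.08 CPM in NP. In hippocampus it was 5.63 CPM in LP and 6.80 CPM in NP males, and 4.90 CPM in LP and 5.23 CPM in NP females over the genes measured there. Hypothalamus had 16.9 CPM in LP and 19.1 CPM in NP, so this sum was lower in LP in 4 of 5 pairs. The median log2 ratio of these genes, LP to NP, went both ways. It was 0.25 in male and 0.11 in female prefrontal cortex. In hippocampus it was −0.68 in males and 0.42 in females, and in hypothalamus −0.20. The female hippocampus median covers the 2 genes with counts in both libraries, fewer than its sum. The neutrophil elastase gene Elane had 1 count over all 10 libraries together.

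Vessel genes were set beside the globins in single pairs, which have 1 library a side and no test. In the hypothalamus pair, where summed alpha was 0.673 times NP, 16 of 17 endothelial genes were higher in LP (median log2 ratio 0.63, summed level 914 CPM in LP and 612 CPM in NP). All 14 mural and meningeal genes were higher there too (median 0.97, summed level 1301 CPM in LP and 619 CPM in NP), where 49.3% of all genes were higher in LP. In the other pairs the endothelial median ran from −0.21 to 0.13 and the mural and meningeal median from −0.21 to −0.06. Male prefrontal cortex had both medians at −0.21 beside its summed alpha ratio of −0.81. Over the 5 pairs Slc2a1, the glucose transporter of the blood-brain barrier, was the 1 of 17 endothelial genes to pass, against 0.957% of all genes called higher, and it rose by 0.30 ± 0.05 (edgeR adjusted p = 0.00777, and 0.0573 without the female prefrontal cortex pair). Of the mural and meningeal genes 0 of 14 passed, with Vtn at 0.20 ± 0.17 and Rgs5 at −0.08 ± 0.08.

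Choroid plexus genes were set beside the globins in the same way. In male hippocampus 10 of 11 were higher in LP, with a median log2 ratio of 0.27 (summed level 408 CPM in LP and 239.7 CPM in NP). In female hippocampus all 6 genes measured were higher, with a median of 0.90 (309 CPM in LP and 79.4 CPM in NP), where 51.2% of all genes were. In male prefrontal cortex 6 of the 8 with counts in both libraries were lower (median −0.48), and in hypothalamus the median was 0.01. Over the 5 pairs 1 of 11 passed, against 0.957% of all genes called higher: Ttr, the transthyretin gene, with a rise of 1.36 ± 0.24 (edgeR adjusted p = 0.0152). Without the female hippocampus pair Ttr stood at 0.75 ± 0.19 (adjusted p = 0.097). DESeq2 gave 0.47 for it (adjusted p = 1). The part of vessel or choroid plexus tissue in the globin result was not tested.

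Of the lists compared, the hypothalamic one was the other list with calls in the globins' direction: 4 of its 8 genes fell, against 0.464% of all genes. These were the neuropeptide genes Hcrt (−2.21 ± 0.17), Oxt (−1.09 ± 0.15), Avp (−0.92 ± 0.11) and Pmch (−0.77 ± 0.13, edgeR adjusted p = 0.00839). They were close to 0 outside hypothalamus, so these values rest on the 1 hypothalamus pair, where the summed level of the list was 799 CPM in LP and 1298 CPM in NP, and DESeq2 called 0 of the 4 (adjusted p = 1). The part of dissection in the hypothalamic globin values was not tested. Of the neocortical and hippocampal lists 0 of 5 genes each passed, where 1.42% of all genes did. Cux2 stood at 0.10 ± 0.06, Tbr1 at −0.15 ± 0.10, Wfs1 at 0.09 ± 0.06 and Neurod6 at −0.02 ± 0.08.

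**Figure D4:**
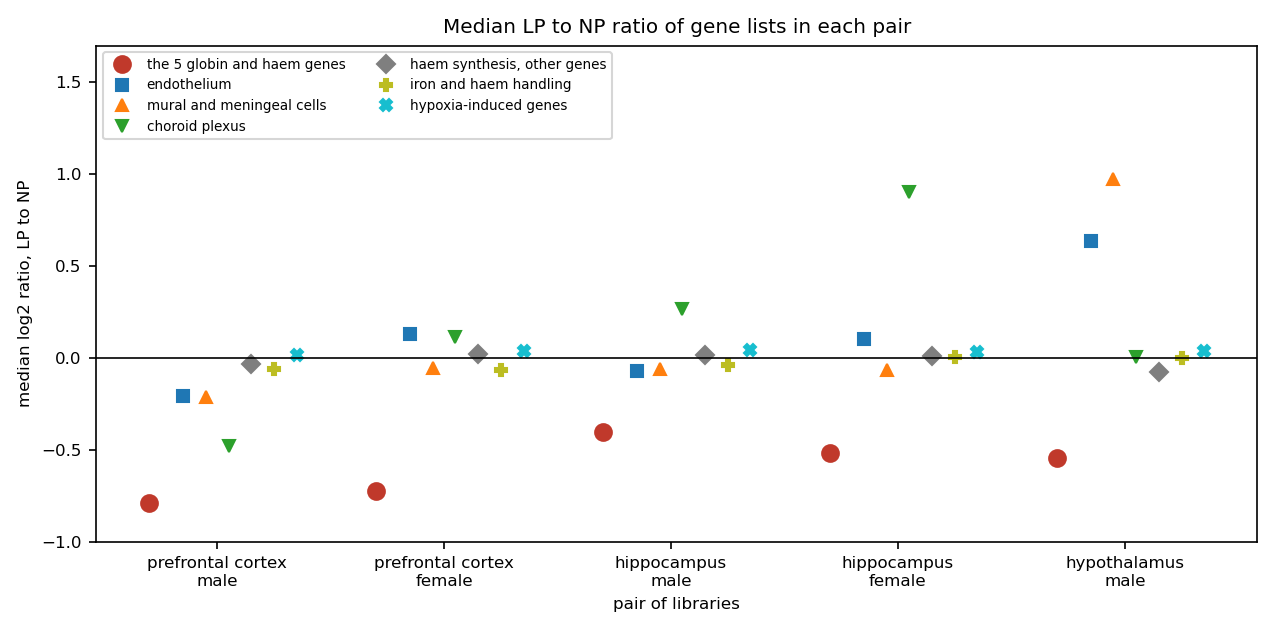
Median log2 ratio of LP to NP in each pair for the 5 globin and Alas2 genes (red circles; the 2 alpha genes alone in female hippocampus) and for 6 gene lists, with 1 symbol per list. The red circles run from −0.79 to −0.40 in all 5 pairs, while in hypothalamus the endothelial and the mural and meningeal medians are 0.63 and 0.97.

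Between regions, the medians of the 6 white cell and platelet genes tested stood in the globins' order. In hippocampus against prefrontal cortex 2 of the 6 were lower and 0 higher (median −1.04, where 26.5% of all genes were lower). In hypothalamus against hippocampus 4 were higher and 0 lower (median 1.80, where 30.6% of all genes were higher). In hypothalamus against prefrontal cortex 3 were higher and 0 lower (median 0.60, where 33.2% of all genes were higher). The mural and meningeal genes, the iron and haem handling genes and the globins of nerve and other tissues also had medians in this order. In the same 3 comparisons the medians were −0.06, 0.17 and 0.08 for iron and haem handling. They were −0.21, 2.45 and 3.90 for the globins of nerve and other tissues. The endothelial medians did not have this order. In hippocampus against prefrontal cortex 11 of 17 endothelial genes were lower and 0 higher (median −0.39, where 26.5% of all genes were lower and 27.5% higher). Of the 14 mural and meningeal genes 4 were lower in that comparison and 2 higher (median −0.20). In hypothalamus against prefrontal cortex, where the globins were higher, 30.7% of all genes were lower and 33.2% higher. There 8 of 17 endothelial genes were lower and 2 higher (median −0.38), while 8 of 14 mural and meningeal genes were higher and 5 lower (median 1.43). In hypothalamus against hippocampus, where 30.6% of all genes were higher, 3 of 17 endothelial genes were higher and 1 lower (median 0.09). Of the 14 mural and meningeal genes 8 were higher there and 0 lower (median 1.53).

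Across the 9 complete libraries the 5 genes were the 5 of 16800 genes whose levels ran most closely with summed alpha. Measured as Pearson's r of log2(CPM + 0.5), and with Hba-a1 and Hba-a2 being parts of that sum, r was 0.999 for Hbb-bs, 0.999 for Hbb-bt and 0.989 for Alas2. The libraries share regions and diets, so r is a description. The 10 genes that came next were Gm10154, Rpl34-ps1, Zfp639, Tmem268, Tspan4, Rpl35a-ps3, Gm10243, Rpl35a-ps6, Rpl35a-ps5 and Eif3h, with r from 0.983 to 0.967. By diet these 10 had log2 differences of −0.18 to −0.04, and 0 of them passed. Gm10154, the closest, ran from 70.9 to 111 CPM over the 9 libraries, against 271 to 1467 CPM for summed alpha.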

How the data were processed

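The deposited table holds raw, unnormalized counts of Ensembl genes in 10 libraries. Per the submitters' processing notes, CASAVA, FastQC 0.10.1 and STAR 2.5.0a were used with mm10. The counting tool, strand setting and handling of reads that match more than 1 gene are not given in these sources. Of 47729 genes, 47310 had their ID in GENCODE M21. In the NP female hippocampus library, 19598 genes were treated as not measured and fitted on the other 9 libraries. Library sizes were totals over the other 28131 genes, scaled by TMM.

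Genes passing filterByExpr (minimum count 10) were tested with edgeR 4.0.16's quasi-likelihood test in R 4.3.3, with pairs of region and sex as strata. Genes fitted on 9 and on 10 libraries were adjusted as 1 family by Benjamini-Hochberg, with a threshold of 0.05. Region fits had sex and diet as terms; sex fits used strata of region by diet. Standard errors are the log2 difference divided by the root of the F value. Single pairs and proportions have exact binomial or Wilson 95% intervals and single levels exact Poisson ones, for counting error only. A gene with 0 counts in either library of a pair was left out of that pair's list median and of its counts of higher and lower genes. Summed levels kept such genes. DESeq2 1.42.0, RLE scaling, no filter, the earlier edgeR method, all-gene totals, an additive fit and leaving out each pair were alternatives. The pipeline was tested on simulated data. Promoter windows are RefSeq's, and coding sequences, transcripts and their lengths are those of GENCODE M21. Sequences were aligned with Biopython 1.88.

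The 5 genes and the 13 gene lists were chosen with earlier results of these data known. List genes were named if past the threshold by diet, up to 4 per list, otherwise the 2 with the highest mean CPM. Genes at the detection limit and Elane were added after their counts were seen. For likeness, genes with a mean of at least 1 CPM were ranked and the 10 closest named. One listed gene is not reported here.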

Additional observations from a re-analysis of the deposited data

How the results depend on the processing

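Of the 5 genes, 4 to 5 were called lower in LP over the pairs in every alternative that treats the incomplete library as missing, and the log2 falls of the 4 globin genes ran from −0.67 to −0.55 there. With the zeros of that library kept as counts, 0 of the 5 were called: Hba-a1 stood at −0.60 (adjusted p = 0.503), while Hbb-bs and Hbb-bt turned to 0.15 each, since 1 of their NP values is then 0 by construction. Without a filter on low counts, 0 of the 2 alpha copies were called in hippocampus, against 2 with it, and the log2 values stayed at −0.42 and −0.45. With 1 pair left out at a time, 4 to 5 genes stayed below the threshold, summed alpha ran from −0.66 to −0.56 and summed beta from −0.64 to −0.55. Alas2 alone lost its call elsewhere, with log2 values from −0.90 to −0.56. Among all genes, 251 were called by diet with edgeR, 109 with DESeq2, 171 without a filter, 98 without the female and 204 without the male prefrontal cortex pair, 102 without the male hippocampus pair and 1 with the zeros kept. In prefrontal cortex the counts were 227 with edgeR, 15 with DESeq2, 26 without a filter and 785 with all-gene totals. In hippocampus they were 39 with edgeR, 11 with DESeq2, 6 without a filter and 137 with all-gene totals. No paired analysis was possible beyond the pairs of region and sex because each group has 1 library; without these strata, with region and sex additive, the 5 genes were still called. Counts limit Alas2, at 24 to 187 per library, and left 6 of 19 red cell genes with enough counts to test.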
